A study of Mus musculus with 12 samples.

Results

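Gene expression was compared between the ileum, taken with its Peyer's patches, of 3 FIRE -/- and 3 FIRE +/+ mice. The 6 arrays were all those labelled Peyer's Patches/Ileum, out of 12 arrays in the series, and every transcript cluster that carried a single gene symbol was tested, 21218 of 35556 clusters for 18820 genes. A transcript cluster is the set of probes on the array that reads one gene, and its value is a log2 signal. FIRE is an enhancer in an intron of *Csf1r*, and the FIRE -/- mice, *Csf1r*ΔFIRE/ΔFIRE in the study's notation, carried its germline deletion on both alleles. The deletion descends from 1 male founder made by CRISPR/Cas9, so it stands for 1 allele in every cell of the animal and was not limited to macrophages. All mice carried the C57BL/6J/CBA strain label, were 6 weeks old and were perfused with saline, and the FIRE +/+ animals had the undeleted enhancer with no other allele or agent named. FIRE +/+ replicates 1 and 2 were male and replicate 3 was female, whereas FIRE -/- replicates 1 and 3 were female and replicate 2 was male. The other 6 arrays were hippocampus from the same genotypes, 3 each, and are used only to ask where the ileum differed from it.

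CSF1R is the receptor tyrosine kinase of the macrophage lineage, and its ligands CSF1 and IL34 keep monocytes and tissue macrophages alive and dividing. In the gut wall, most macrophages lie in the lamina propria under the epithelium and are replaced by blood monocytes, while longer-lived macrophages sit around vessels, nerves and the muscle layers. Peyer's patches are lymphoid follicles of the ileum, roofed by an epithelium with microfold (M) cells that carry antigen to the B and T cells below. Signals through CSF1R are known to act on the making of Paneth cells, goblet cells and M cells, and the ileum arrays address whether *Csf1r*, macrophage genes and the markers of these epithelial cells differ when FIRE is absent.

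The labelled tissue was present on every array, but the pieces were not alike. *Fabp6*, the ileal bile acid binding protein, lay between 9.26 and 11.59, against hippocampal means of 2.71 and 2.75. *Ms4a1*, which encodes the B cell protein CD20, was 2.68, 7.66 and 2.50 in FIRE +/+ replicates 1, 2 and 3 and 7.68, 2.32 and 2.14 in FIRE -/- replicates 1, 2 and 3, the order in which array values are given below. FIRE +/+ replicate 2 and FIRE -/- replicate 1 thus held much lymphoid tissue, and are called patch-rich below, and the other 4 arrays, called patch-poor, stood close to the hippocampal means of *Ms4a1*, 1.99 and 2.22, so that this marker gave little sign of a patch in them. Genes that mark position along the gut also varied between the pieces, whose positions the labels do not give. *Gata4*, a transcription factor of the proximal small intestine, was 8.09, 6.34 and 4.56 in FIRE +/+ ileum and 8.63, 8.69 and 7.17 in FIRE -/- ileum, and *Slc10a2*, the bile acid uptake carrier of the distal ileum, was lowest on FIRE -/- replicate 2, at 5.58. *Adipoq*, made by fat cells, was 6.97, 5.78 and 7.96 against 3.53, 5.85 and 7.86, with its lowest values on the patch-rich arrays. Every array matched its labelled sex. Correlations between the 6 arrays over all clusters were 0.979 to 0.987, and the number of arrays limits the precision of every value here.

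**Figure D1:**
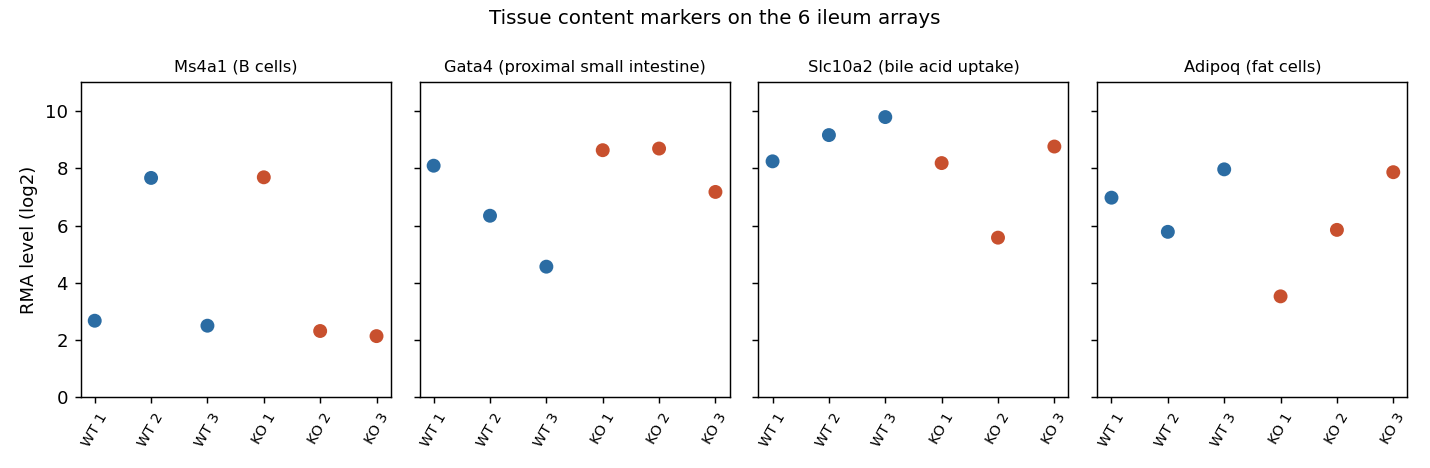
Log2 signal of *Ms4a1* (B cells), *Gata4* (proximal gut), *Slc10a2* (distal ileum) and *Adipoq* (fat) on the vertical axis for each of the 6 ileum arrays, with WT for FIRE +/+, KO for FIRE -/- and the replicate number after it. *Ms4a1* is at 7.66 and 7.68 on FIRE +/+ replicate 2 and FIRE -/- replicate 1 and at 2.14 to 2.68 on the other 4 arrays. *Adipoq* is lowest on those same 2 arrays, at 5.78 and 3.53, while *Gata4* and *Slc10a2* are lowest on others.

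No cluster passed the test in the ileum. With limma and Benjamini-Hochberg adjustment, 0 of 21218 clusters (0%) were lower and 0 (0%) were higher in FIRE -/- at an adjusted p under 0.05, and the smallest adjusted p was 0.9995. At an unadjusted p under 0.05 there were 327 lower (1.54%) and 393 higher clusters (1.85%), 720 in all, where 1060.9 would be counted if none differed. An unmoderated F test also called 0 clusters. The 3 FIRE -/- arrays lay wholly below the 3 FIRE +/+ arrays for 960 clusters (4.52%) and wholly above for 746 (3.52%). The spread still bounded most genes: the 95% interval of the log2 fold change lay within 1 of 0, that is within a 2-fold change, for 94.7% of clusters. Of the 85 clusters whose means differed at least 2-fold, 26 lower and 59 higher in FIRE -/-, 5 and 15 did not overlap between genotypes. The labels do not say more of the samples than that each is an animal of one genotype, and the p-values measure only the spread between these samples.

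Since lymphoid content differed, the genotypes were also compared at equal *Ms4a1*, by adding the *Ms4a1* level of each array to the fit. At equal *Ms4a1*, 0 of 21217 clusters (0%) were lower and 0 (0%) higher at an adjusted p under 0.05, with a smallest value of 0.9998. At an unadjusted p under 0.05, 328 clusters (1.55%) were lower and 423 (1.99%) were higher, and the interval lay within 1 of 0 for 96.2%. The patch-rich arrays could be set against each other and the patch-poor arrays against each other, with no array shared. The patch-poor arrays held a male and a female of each genotype. The patch-rich pair set a female FIRE -/- array against a male FIRE +/+ array, so genotype and sex cannot be told apart in it. The genotype difference had the same sign in both comparisons for 43.8% of clusters. Its median over all clusters was 0.00 in the patch-poor and -0.03 in the patch-rich arrays. In what follows every ileal value is therefore a measured difference that did not pass the adjusted test in either fit, and a p-value is given where it describes the spread.

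*Csf1r* itself was 7.41, 8.17 and 7.39 in FIRE +/+ ileum and 6.44, 7.53 and 6.86 in FIRE -/- ileum. One FIRE -/- array, replicate 2, lay within the FIRE +/+ range and the other 2 lay below it. The log2 fold change was -0.71 (SE 0.32, 95% interval -1.47 to 0.05, n = 3 per genotype, adjusted p 0.9995 by limma), and -0.71 (SE 0.34) at equal *Ms4a1*. With sex as a covariate it was -0.50 (SE 0.26), and among the 4 patch-poor arrays alone it was -0.20. Its ligand genes had higher means in FIRE -/-. *Csf1* was 6.01, 6.80 and 6.61 against 6.37, 6.87 and 6.51, a difference of 0.11 (95% interval -0.44 to 0.65). *Il34* was 4.83, 5.24 and 4.63 against 5.13, 5.39 and 5.26, a difference of 0.36 (95% interval -0.05 to 0.77), and its genotypes overlapped.

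The other macrophage genes had no common direction. In a list of 23 genes of the macrophage core, the complement, Fc receptor, lysosomal and adhesion genes that most macrophages express, 12 had a lower and 11 a higher mean in FIRE -/-, with a median log2 fold change of -0.01 beside -0.01 over all clusters, and none separated the genotypes. These genes were less closely bounded than most. The 95% interval lay within 1 of 0 for 11 of the 23, and for 4 of 10 macrophage markers that the study followed, beside 94.7% of all clusters. The direction differed between subsets of the arrays: the median of the core list was 0.38 in the 4 patch-poor arrays and -0.81 between the 2 patch-rich arrays. The patch-rich pair also differed in sex, and patch content, sex and animal cannot be told apart in that contrast. *Adgre1*, which encodes F4/80, varied widely between arrays, at 5.68, 6.12 and 6.30 against 4.74, 6.76 and 5.98. In bulk tissue, fewer cells of a type and less RNA per cell cannot be told apart.

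The difference between *Csf1r* and the other 22 core genes of the same array was then compared between genotypes, since the core genes varied between pieces. *Csf1r* minus the mean of the other core genes was 1.28, 1.25 and 0.85 in FIRE +/+ ileum and 0.18, 0.57 and 0.35 in FIRE -/- ileum. All 3 FIRE -/- arrays lay below all 3 FIRE +/+ arrays, and the means differed by -0.76. The same difference was taken for each core gene in turn, and *Csf1r* was the only one of the 23 whose genotypes did not overlap. That is 1 of 23, beside 4.52% of all clusters wholly lower on the plain log2 scale. When the mean of the 22 genes was taken from every cluster, most of them not macrophage genes, 95 of 21218 (0.448%) lay wholly lower and 38 (0.179%) wholly higher in FIRE -/-. *C1qa*, a complement subunit made by macrophages, was 0.98, 0.94 and 0.84 against 0.81, 0.87 and 0.89 on this scale. *Mpeg1*, a pore-forming protein of phagocytes, was 0.61, 0.92 and 0.52 against 0.70, 0.78 and 0.69. Some core genes were highest on the patch-rich arrays. *Laptm5* was 1.48, 3.30 and 1.88 against 3.82, 2.06 and 1.93, and *Cybb* 0.53, 2.05 and 0.69 against 2.32, 1.13 and 1.09. The core mean without *Csf1r*, at 6.12, 6.91 and 6.55 against 6.26, 6.96 and 6.51, thus includes genes that followed patch content. With the mean of the core list without *Csf1r* as a covariate, a setting chosen after the data were seen, the log2 fold change of *Csf1r* was -0.77 with an SE of 0.17 in place of 0.32, and the adjusted p was 0.991. At equal core level 0 clusters (0%) passed, and 387 (1.82%) were lower and 488 (2.3%) higher at an unadjusted p under 0.05. Left without any 1 array, the *Csf1r* difference was -0.91 to -0.58, and without both patch-rich arrays it was -0.51. With sex added to the core mean it was -0.63 (SE 0.12). Genes outside the list of 23 also had lower values at equal core level. *Cx3cr1*, a macrophage marker that the study followed, differed by -0.45 (SE 0.10) with the same covariate, and by -0.38 (SE 0.33) without it. Among other markers it followed, *Siglec1* and *Timd4* differed by 0.44 (SE 0.18) and 0.43 (SE 0.26) with the covariate. A difference from other genes on an array shows unequal levels only.

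**Figure D2:**
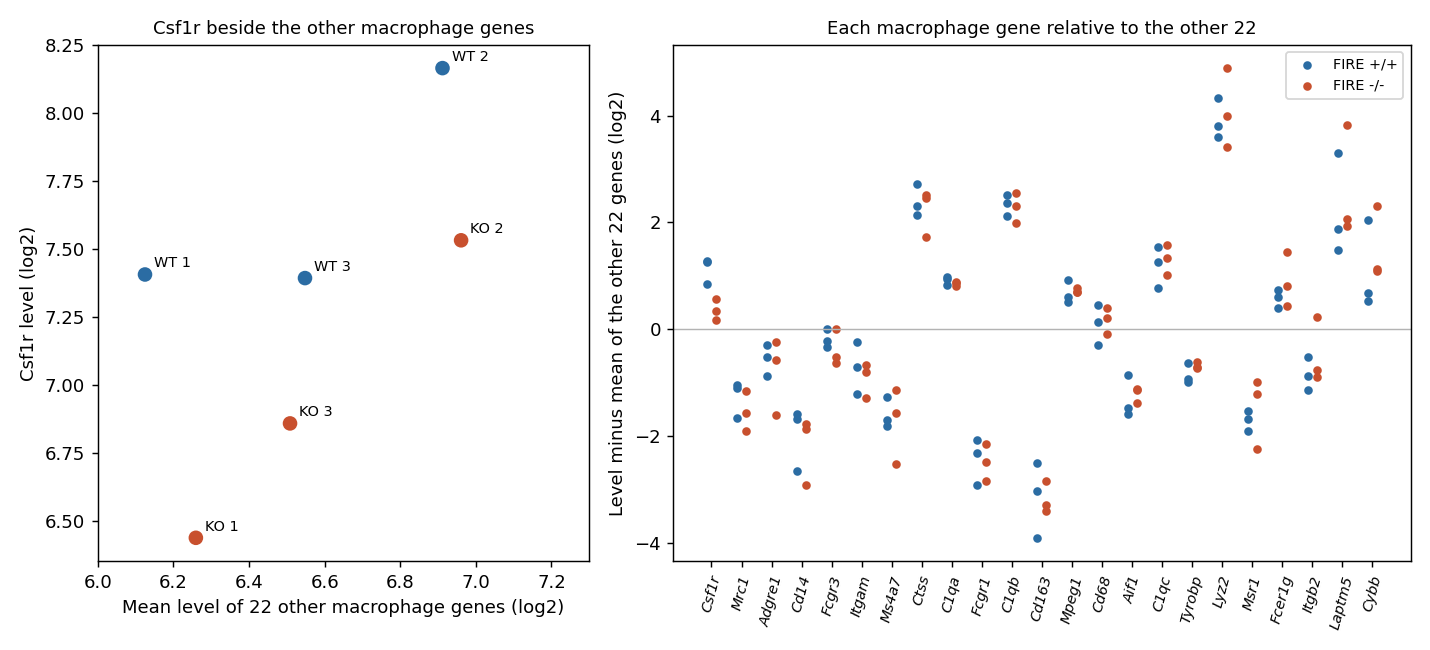
Left, log2 signal of *Csf1r* (vertical) against the mean of the other 22 macrophage core genes on the same array (horizontal), 1 point per array. Right, each of the 23 core genes minus the mean of the other 22 on the same array (log2), for FIRE +/+ (WT) and FIRE -/- (KO): the genotypes are apart for *Csf1r*, at 0.85 to 1.28 against 0.18 to 0.57, and overlap for the other 22 genes.

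*Csf1r* lies on mouse chromosome 18, and the genes beside it were read for comparison. Of the 5 protein-coding neighbours on each side in the RefSeq annotation of GRCm38.p6, 8 of 10 had a cluster, and their log2 fold changes ran from -0.30 to 0.23 with a median of -0.06. *Cdx1*, a transcription factor of intestinal epithelium, was 7.54, 7.65 and 7.80 against 7.45, 7.28 and 7.35. It was the 1 neighbour of 8 whose genotypes did not overlap, beside 4.52% of all clusters wholly lower. The difference of *Cdx1* was -0.30 (SE 0.11), and -0.20 (SE 0.14) at equal *Gata4*. Whether it is tied to the position beside *Csf1r* was not tested. *Pdgfrb*, the receptor gene next to *Csf1r* and a marker of pericytes, differed by 0.12.

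Genes of long-lived macrophages were also measured, since these cells divide in place. Of 16, 8 had lower and 8 higher means in FIRE -/-, with a median of 0.00 (0.14 in the patch-poor arrays and -0.16 between the patch-rich ones), and 1 did not overlap, beside 4.52% of all clusters. This was *Gas6*, which bridges dying cells to phagocyte receptors, at 8.95, 8.78 and 9.02 in FIRE +/+ and 8.61, 8.60 and 8.73 in FIRE -/- (difference -0.27, unadjusted p 0.0441). *Timd4*, a phosphatidylserine receptor of long-lived macrophages, was 4.37, 5.07 and 3.95 against 4.92, 5.13 and 4.73, a higher mean in FIRE -/- by 0.46. *Siglec1*, a sialic acid receptor, was 4.05, 4.21 and 4.37 against 4.26, 4.82 and 4.93, higher by 0.46 with overlap. *Lyve1*, which perivascular macrophages share with lymphatic vessels, was 7.50, 7.73 and 8.05 against 6.88, 7.72 and 7.43. Its mean was lower in FIRE -/- by 0.41, while *Timd4* and *Siglec1* of the same list had higher means.

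Among 10 monocyte genes, 7 had higher and 3 lower means in FIRE -/-, with a median of 0.14, or 0.26 in the patch-poor arrays and -0.38 between the patch-rich ones. *Nr4a1*, a nuclear receptor that patrolling monocytes need and that many cells switch on after a stimulus, was 7.66, 8.46 and 6.93 in FIRE +/+ ileum and 6.27, 6.80 and 6.14 in FIRE -/- ileum. The genotypes did not overlap, and the log2 fold change was -1.28 (SE 0.38, unadjusted p 0.0119). The other immediate early genes did not share this: the list of 15 that holds *Nr4a1* had a median of 0.05, with 9 higher and 6 lower means. *Ace*, found on patrolling monocytes and on the enterocyte brush border, was 10.47, 9.88 and 9.61 against 10.89, 11.05 and 10.39, higher by 0.79 with overlap. *Klf4*, a transcription factor of monocytes and of differentiated epithelium, was 8.88, 8.80 and 8.81 against 9.48, 9.05 and 9.12, higher by 0.39 without overlap. *Retnla*, secreted by alternatively activated macrophages and eosinophils, was 3.08, 3.10 and 5.0 against 2.10, 2.42 and 2.88, lower by 1.26 without overlap. Only FIRE +/+ replicate 3 lay above 3.10, so this gene was dim on the other arrays. Of 13 genes for dendritic cells, 10 had higher means in FIRE -/-, with a median of 0.15 and no gene without overlap, but the median was 0.28 in the patch-poor arrays, -0.23 between the patch-rich ones and -0.15 without FIRE +/+ replicate 1.

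The epithelial markers that the study followed were bounded closely except where the pieces differed in lymphoid tissue. *Lyz1*, the lysozyme of Paneth cells, was 12.66, 12.64 and 12.76 against 12.68, 12.82 and 12.69, and the 95% interval of its difference ran from -0.20 to 0.29. *Muc2*, the mucin of goblet cells, was 12.18, 11.65 and 11.83 against 12.13, 11.80 and 11.84, with an interval of -0.36 to 0.44. *Tnfrsf11a* encodes RANK, the receptor whose ligand drives M cell formation, and it was 8.15, 7.97 and 7.85 against 7.91, 8.01 and 8.03, with an interval of -0.28 to 0.27. All 3 intervals lay within a 2-fold change, for transcripts of these cells in a whole piece of ileum. *Ccl9*, a chemokine of the M cell epithelium, had an interval of -0.52 to 0.61. *Spib*, the transcription factor of M cells that B cells also express, was 5.45, 8.21 and 5.90 against 8.31, 6.07 and 5.23, and its 2 high arrays were the patch-rich ones. The standard error of *Spib* was 0.95, and 0.23 at equal *Ms4a1*, where the difference was 0.13.

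Lists of Paneth, goblet, tuft and M cell genes had medians near 0 over the 6 arrays. Of 7 Paneth cell genes none separated the genotypes, and their median was 0.03. Of 10 goblet cell genes, 2 were lower without overlap, beside 4.52% of all clusters. They were *Rep15*, a Rab15-binding protein, by 0.32 and *Atoh1*, the transcription factor that commits secretory cells, by 0.19, from 9.61, 9.60 and 9.67 in FIRE +/+ to 9.36, 9.42 and 9.53 in FIRE -/-. Of 10 genes for tuft cells, chemosensory cells of the epithelium, 2 were lower without overlap, again beside 4.52%, but the median of the list was 0.23 in the patch-poor arrays and -0.32 between the patch-rich ones. *Pou2f3*, the transcription factor that tuft cells require, was 5.04, 4.99 and 5.16 against 4.39, 4.74 and 4.69 (difference -0.46, unadjusted p 0.00919), and *Dclk1*, a kinase that marks them, was 7.11, 6.77 and 7.08 against 6.67, 6.68 and 6.61 (difference -0.33). *Trpm5*, their ion channel, did not share this, with a difference of 0.00 and a range of 5.90 to 6.05 against 5.66 to 6.26. *Gp2*, the bacterial receptor of mature M cells, was 2.34, 6.84 and 2.65 against 6.28, 3.30 and 2.90 and so followed the patch-rich arrays. At equal *Ms4a1* its difference was 0.39 with an SE of 0.31.

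Genes of crypt stem cells and of the cell cycle had lower means in FIRE -/- almost throughout. Of 12 stem cell and Wnt target genes, 11 had a lower mean, with a median of -0.15 beside -0.01 over all clusters, and 2 did not overlap, beside 4.52% of all clusters wholly lower. The median was -0.08 in the patch-poor arrays and -0.06 without FIRE +/+ replicate 3 or FIRE -/- replicate 1. *Ascl2*, the transcription factor that maintains crypt base stem cells, was 6.26, 6.57 and 6.60 in FIRE +/+ and 5.95, 5.94 and 5.70 in FIRE -/-. Its difference was -0.61 (SE 0.14, 95% interval -0.93 to -0.29, unadjusted p 0.00295). *Lgr5*, the R-spondin receptor that marks the same cells, was 8.03, 8.13 and 8.45 against 7.64, 7.94 and 7.71, a difference of -0.44 (SE 0.15). Not all stem cell genes shared it. *Olfm4*, abundant at the crypt base, differed by -0.01 and *Smoc2* by 0.01. Of 14 cell cycle genes 13 had a lower mean, with a median of -0.20, which was -0.11 without FIRE -/- replicate 3, and 2 did not overlap, beside 4.52% of all clusters. *Ccnb2*, a mitotic cyclin, was 9.65, 9.58 and 9.70 against 8.78, 9.49 and 9.21, lower by 0.48. The cell cycle median was -0.20 at equal *Ms4a1* and -0.21 in the patch-poor arrays. Genes of smooth muscle had lower means for 10 of 10, with a median of -0.11 and none without overlap, but the median was 0.11 at equal *Gata4* and 0.05 without FIRE +/+ replicate 3.

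Genes of fat and sugar uptake had higher means in FIRE -/-, beside a higher *Gata4*. Of 16 genes of intestinal lipid handling, 16 had a higher mean, with a median of 0.28 beside -0.01 over all clusters, 1 did not overlap, which is near the 3.52% of all clusters wholly higher, and 5 had an unadjusted p under 0.05, beside 1.85% of all clusters. *Fabp1*, the fatty acid binding protein of proximal enterocytes, was 7.67, 5.72 and 5.97 in FIRE +/+ and 9.62, 8.44 and 6.81 in FIRE -/-, a difference of 1.84 (SE 0.78). *Apoa4*, an apolipoprotein of chylomicrons, was 11.50, 10.45 and 10.02 against 12.04, 12.23 and 11.49, a difference of 1.26 (SE 0.38). *Npc1l1*, the cholesterol uptake carrier, was the 1 gene without overlap and differed by 0.28. Of 18 genes of digestion and uptake, 16 had a higher mean, with a median of 0.13, or 0.04 in the patch-poor arrays and 0.33 between the patch-rich ones. *Lct*, the lactase of the brush border, was 10.94, 8.58 and 6.50 against 11.45, 11.55 and 9.77, a difference of 2.25 with an SE of 1.06. *Slc2a2*, the basolateral glucose carrier, was 8.11, 7.40 and 6.69 against 9.41, 8.83 and 8.40. It separated the genotypes and differed by 1.48 (SE 0.39, 95% interval 0.55 to 2.40). *Gip*, the hormone of proximal enteroendocrine cells, was 6.99, 6.66 and 5.12 against 7.88, 8.53 and 7.38, apart between genotypes by 1.68 (SE 0.51).

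The genotypes were therefore also compared at equal *Gata4*. *Gata4* differed between genotypes by 1.83 (SE 0.86, 95% interval -0.20 to 3.86) with overlap. With its level in the fit, a setting added after the data were seen, the difference of *Lct* was -0.03 (SE 0.15), that of *Slc2a2* was 0.72 (SE 0.23), that of *Apoa4* was 0.49 (SE 0.18), that of *Fabp1* was 0.61 (SE 0.72) and that of *Gip* was 0.69 (SE 0.31). The median of the digestion list was then 0.01 and that of the lipid list 0.15. *Cyp2b10*, a drug-metabolizing cytochrome, was 8.58, 6.33 and 5.26 against 9.69, 9.92 and 7.34, with a difference of 2.26 that became 0.29 (SE 0.42) at equal *Gata4*. The positions of the pieces along the gut are not given in the labels, and *Gata4* was chosen after its values were seen.

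Bile acid and cholesterol genes pointed elsewhere. *Slc10a2* was 8.24, 9.16 and 9.79 in FIRE +/+ and 8.18, 5.58 and 8.76 in FIRE -/-, a difference of -1.56 (SE 0.82), or -0.45 (SE 0.88) at equal *Gata4*. *Fgf15*, the hormone that ileal cells release when bile acids bind the receptor FXR, was 9.64, 9.01 and 8.49 against 10.02, 10.001 and 11.04. It was apart between genotypes and higher in FIRE -/- by 1.30 (SE 0.37, unadjusted p 0.00974), and by 1.07 (SE 0.49) at equal *Gata4*. *Nr1h4*, which encodes FXR, differed by -0.55 and *Fabp6* by -0.49, both with overlap. Of 7 measured genes of cholesterol synthesis, 7 had a lower mean, with a median of -0.32, and 4 did not overlap, beside 4.52% of all clusters wholly lower. They were *Hmgcs1*, an enzyme of the pathway, at 9.82, 9.67 and 9.92 against 9.56, 9.15 and 9.51 (difference -0.40), *Insig1*, which holds back the SREBP factors, at 9.50, 9.44 and 9.44 against 9.18, 9.12 and 9.24 (-0.28), *Srebf2*, the factor that drives the pathway (-0.24), and *Fdps*, a further enzyme (-0.15). The median of this list was -0.28 at equal *Gata4*, -0.54 in the patch-poor arrays and -0.12 between the patch-rich ones.

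Genes switched on by interferon had higher means in FIRE -/- for 13 of the 14 measured, with a median of 0.35, and 4 were apart between genotypes, all higher, beside 3.52% of all clusters wholly higher. Interferons act through the ISGF3 complex, which binds a sequence element in the promoters of these genes, and the proteins block viral RNA or temper the response. The promoters of *Ifit1*, *Ifit3* and *Isg15* are shown as examples of members with a promoter entry in RefSeq, 2 of them apart between genotypes and *Isg15* nearly so, and were chosen after their values were seen. Each is the 200 bases before the start of the gene, 5′ to 3′ on the gene's strand in GRCm38.p6, with matches to GAAANNGAAA on either strand in capitals. The windows lie at chr19:34640689-34640888, plus strand, chr19:34583329-34583528, plus strand, and chr4:156200819-156201018, minus strand.
Ifit1: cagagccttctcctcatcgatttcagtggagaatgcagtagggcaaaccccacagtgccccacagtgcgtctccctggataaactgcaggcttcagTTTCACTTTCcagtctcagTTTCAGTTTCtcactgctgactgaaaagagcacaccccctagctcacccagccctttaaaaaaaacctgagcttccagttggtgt
Ifit3: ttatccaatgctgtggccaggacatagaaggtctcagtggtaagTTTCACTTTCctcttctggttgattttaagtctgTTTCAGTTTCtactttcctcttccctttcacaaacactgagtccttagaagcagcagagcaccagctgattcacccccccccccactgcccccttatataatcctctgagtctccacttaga
Isg15: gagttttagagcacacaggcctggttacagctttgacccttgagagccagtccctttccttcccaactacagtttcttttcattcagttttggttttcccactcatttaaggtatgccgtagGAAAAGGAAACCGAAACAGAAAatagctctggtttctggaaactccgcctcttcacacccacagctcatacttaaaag

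Of the 15 interferon-stimulated genes listed, 10 had such an entry, and 7 of these held a match, where overlapping matches count as separate ones. The same search found a match in 2.27% of all 32851 windows of that length. In *Ifit1* the matches begin 104 and 85 bases before the start, in *Ifit3* 156 and 122, and in *Isg15* the matches overlap and begin 78, 72 and 66 bases before it. The match did not set apart the members with large differences, since *Irgm1* and *Gbp2*, both interferon-inducible GTPases, also held one and differed between genotypes by 0.04 and 0.05. *Ifit2*, *Irf7* and *Oasl2* held no match, and members without an entry included *Mx1*, *Mx2*, *Usp18* and *Zbp1*.

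*Usp18*, a protease that removes ISG15 from proteins and restrains the interferon receptor, was 5.52, 5.26 and 5.48 in FIRE +/+ and 6.65, 6.30 and 6.20 in FIRE -/-. Among the highest-mean clusters of each gene it had the smallest unadjusted p of those with a higher mean in FIRE -/-, 0.000359, with a difference of 0.97 (SE 0.15, 95% interval 0.61 to 1.33, adjusted p 0.9995 by limma). *Ifit1*, which binds viral RNA, was 7.06, 6.55 and 7.23 against 7.53, 7.26 and 7.69, a difference of 0.54. *Ifit3*, its partner, was 6.24, 6.59 and 6.27 against 6.66, 6.74 and 6.81, a difference of 0.37, and *Zbp1*, a sensor of viral nucleic acid, differed by 0.32. All 4 were apart between genotypes. *Isg15*, the ubiquitin-like product of the pathway, was 3.48, 2.64 and 2.99 against 4.14, 3.47 and 4.02, higher by 0.84 with 1 FIRE -/- array just inside the FIRE +/+ range. *Oas1a*, an RNA-sensing synthetase, was 5.82, 4.97 and 5.64 against 6.65, 5.72 and 6.35, higher by 0.76. *Mx1* and *Ifit2* stayed at differences of -0.01 and 0.04. The median of the list was 0.35 at equal *Ms4a1*, 0.25 in the patch-poor arrays, 0.35 between the patch-rich arrays and 0.44 at equal *Gata4*. *Gm12250*, an interferon-inducible GTPase outside the list that the fit at equal *Ms4a1* brought up, was 4.42, 5.02 and 4.28 against 5.56, 5.29 and 5.25.

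**Figure D3:**
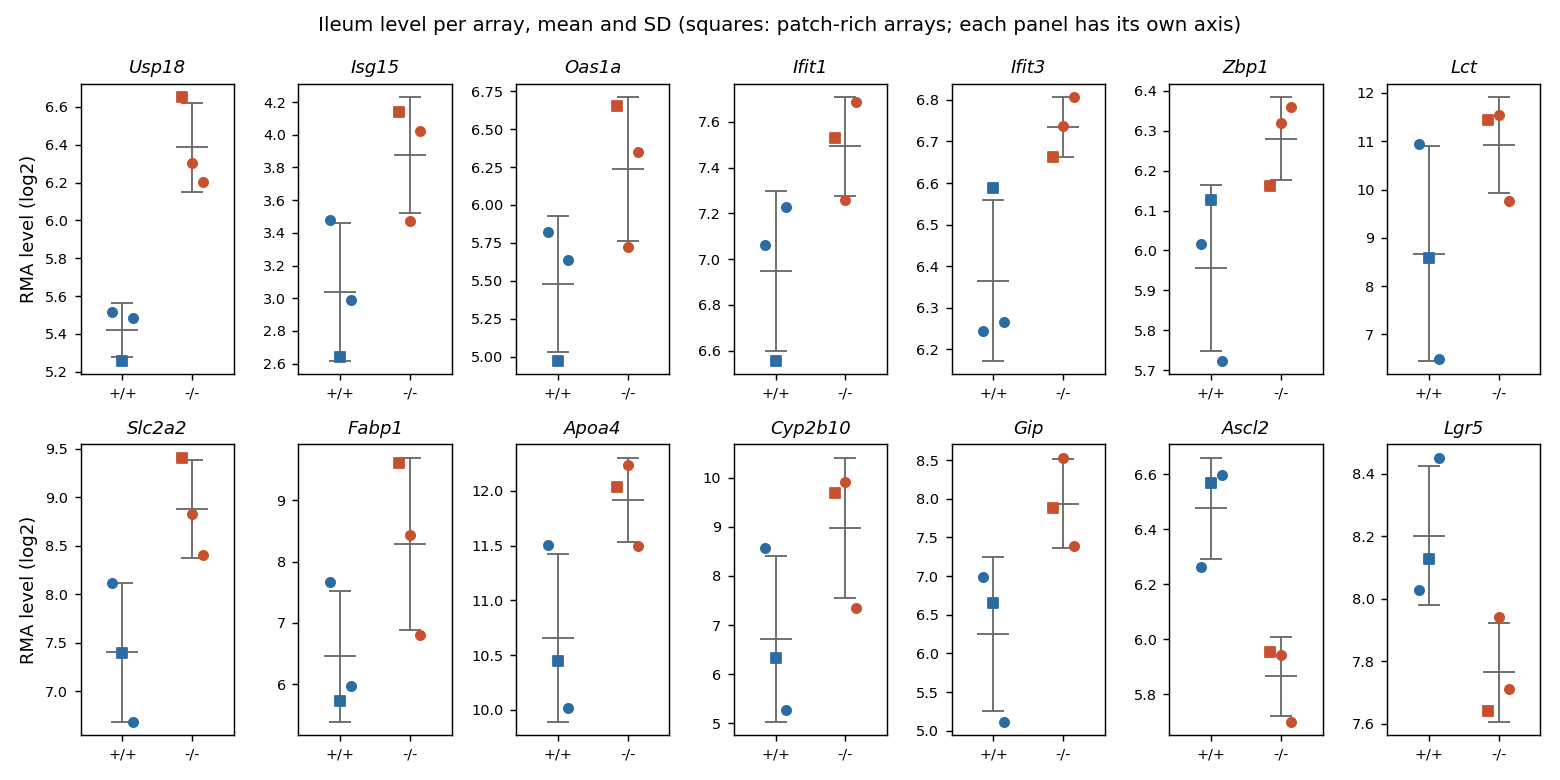
Log2 signal of 14 ileal genes on each array of FIRE +/+ (WT) and FIRE -/- (KO), with squares for the patch-rich arrays, circles for the others, and lines for the mean and SD of the 3 arrays. *Usp18*, *Ifit1*, *Ifit3*, *Zbp1*, *Slc2a2* and *Gip* are higher on all 3 FIRE -/- arrays, *Ascl2* and *Lgr5* are lower on all 3, and *Lct* spans 6.50 to 10.94 within FIRE +/+ alone.

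Lymphoid genes followed the patch content and were better bounded once it was in the fit. The median standard error of the 10 B cell genes was 1.46 without and 0.21 with *Ms4a1*, and their median difference was 0.24 and 0.43. For 10 T cell genes the median standard error was 0.48 and 0.16, with median differences of 0.20 and 0.24, and 9 of 10 had a higher mean in FIRE -/-. *Cd79a*, a subunit of the B cell receptor, was 3.59, 9.18 and 3.87 against 9.05, 5.59 and 3.37. FIRE -/- replicate 2 stood above the other patch-poor arrays here while its *Ms4a1* did not. *Ccl19*, the chemokine of lymphoid stroma, was 3.32, 6.53 and 3.43 against 7.37, 3.83 and 3.86, a difference of 0.59 (SE 1.19) that was 0.74 (SE 0.12) at equal *Ms4a1*. *Cxcl13*, which draws B cells into follicles, was 6.50, 10.70 and 6.17 against 10.34, 7.99 and 6.73, a difference of 0.73 (SE 0.42) at equal *Ms4a1*. Of 11 genes of innate and intraepithelial lymphocytes, 5 had a lower and 6 a higher mean in FIRE -/-, with a median of 0.04. In each direction 1 did not overlap, beside 4.52% of all clusters wholly lower and 3.52% wholly higher. The higher one was *Gzmb*, a granule protease of these cells, at 3.64, 3.65 and 3.78 against 3.92, 4.39 and 4.27, a difference of 0.50. Whether the remaining lymphoid differences come from patch tissue that *Ms4a1* does not follow was not tested.

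Among 21 cytokine and chemokine genes 15 had a higher mean in FIRE -/-, with a median of 0.08, and 1 in each direction did not overlap, near the shares of all clusters, 4.52% lower and 3.52% higher. The median of this list was 0.25 in the patch-poor arrays and -0.25 between the patch-rich ones. *Tnf*, a product of activated macrophages, was 6.08, 5.40 and 5.58 against 5.27, 5.29 and 4.32, lower by 0.73. *Il6*, the other gene without overlap, was 1.87 to 2.03 against 2.20 to 2.37, close to its hippocampal means of 1.84 and 1.93, so that little can be read from its difference. *Il33*, the alarmin of stromal and endothelial nuclei, was 5.68, 5.83 and 5.53 against 7.03, 6.68 and 5.75, higher by 0.81 with overlap, and *Il18*, from epithelium and myeloid cells, was higher by 0.63. Adipose and pancreatic genes had lower means for 10 of 12 in FIRE -/-, with a median of -0.29. That median was -0.05 at equal *Gata4* and ran from -0.37 to -0.08 over left-out arrays. *Retn*, the fat cell hormone resistin, was 8.57, 7.94 and 9.89 against 3.83, 7.61 and 9.71, a difference of -1.75 (SE 1.37) with FIRE -/- replicate 1 far below the other arrays.

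**Figure D4:**
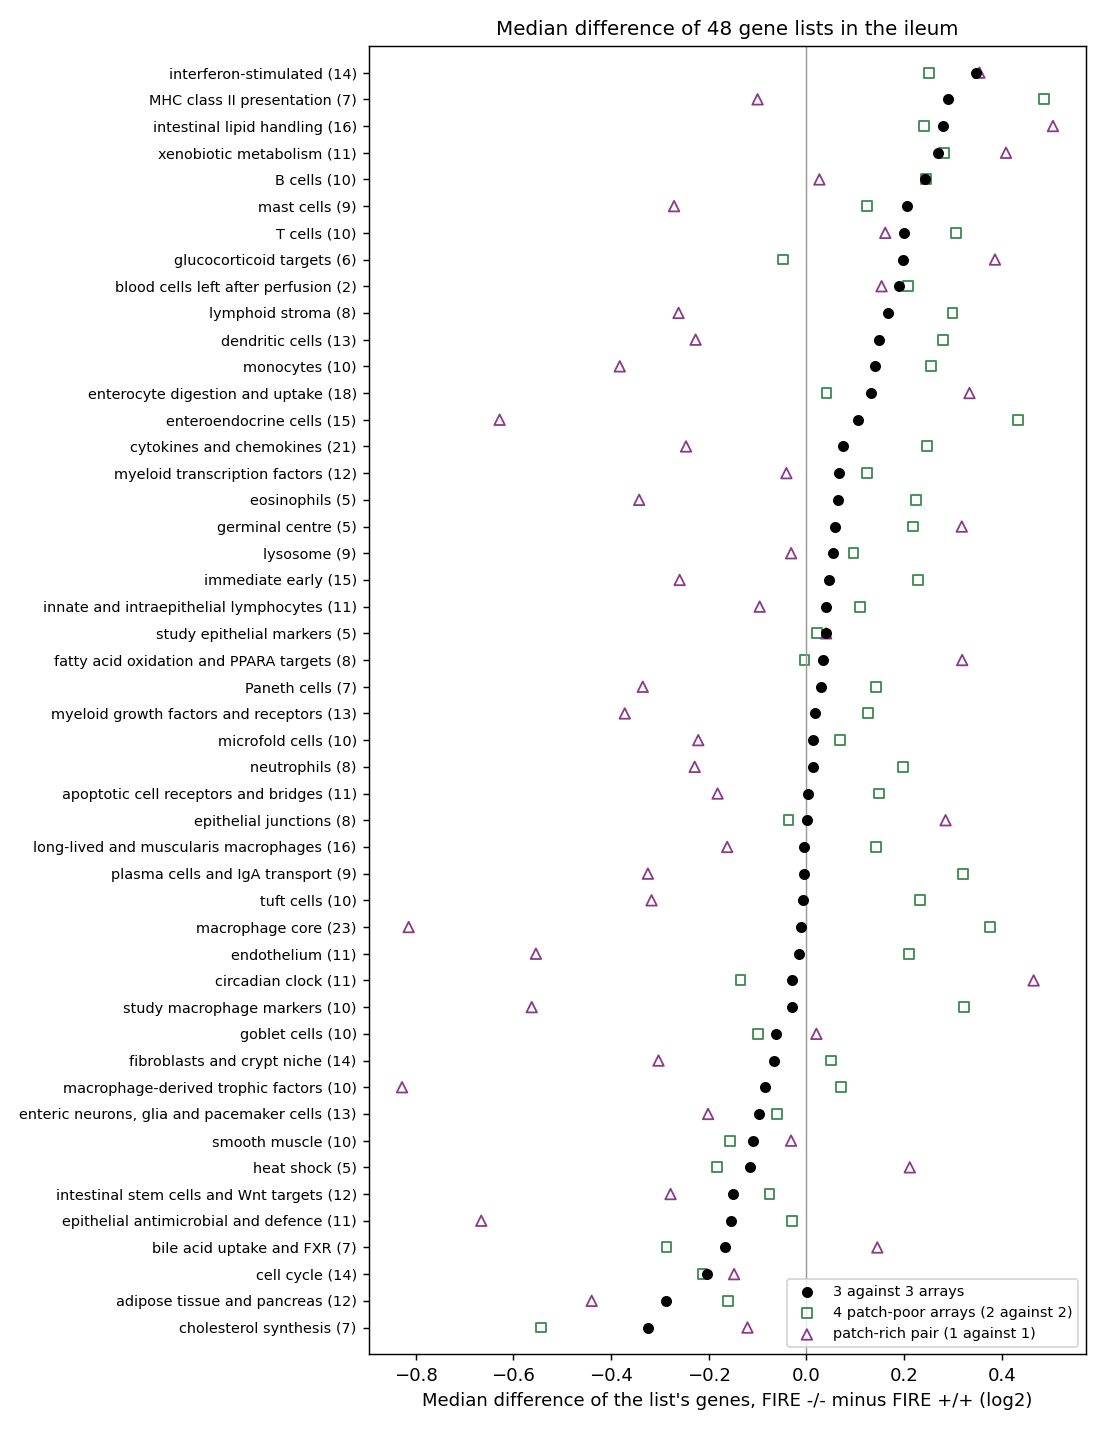
Median log2 difference, FIRE -/- minus FIRE +/+ (horizontal), of 48 gene lists in the ileum (rows, with the number of measured genes), for all 6 arrays (filled circles), the 4 patch-poor arrays (squares) and the 2 patch-rich arrays (triangles). The interferon-stimulated list is above 0 in all 3, at 0.25 to 0.35, the cell cycle list is below 0 in all 3, and the macrophage core list is at 0.38 in the patch-poor arrays and -0.81 between the patch-rich ones.

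The clusters with the smallest p-values were few and of mixed function. The smallest in the ileum, 6.813e-05 unadjusted and 0.9995 adjusted, belonged to 1 of 3 clusters named for *Hspb1*, a small heat shock protein, at 5.45, 5.40 and 5.01 against 3.88, 4.01 and 4.16. The *Hspb1* cluster with the highest mean was 7.59, 7.83 and 8.67 against 7.64, 8.09 and 7.88, a difference of -0.16 beside -1.27, so that the clusters of this gene disagreed. The next smallest p was that of 1 of 4 clusters for Trav14-1, a T cell receptor segment, at 1.42, 1.43 and 1.69 against 2.28, 2.37 and 2.67, and it was chosen after its values were seen. The Trav14-1 cluster with the highest mean differed by 0.00, again in disagreement. Of the other genes with lower values, *Zc3h12a*, the ribonuclease that degrades inflammatory mRNAs, was 7.59, 7.01 and 6.87 against 6.41, 6.42 and 6.14, a difference of -0.84. *Foxc1* (-0.59), *Slc38a4* (-0.52), *Krt33a* (-0.54), *Tfpi2* (-0.91), *Atg16l2* (-0.47) and *Thumpd1* (-0.45) were lower without overlap. *Igsf23*, an immunoglobulin superfamily gene, was 9.37, 9.13 and 9.21 against 9.97, 9.94 and 9.77, higher by 0.66. *Nmbr* (0.70), *Dll3* (0.64), *Zfp93* (0.57), *Dipk1c* (0.67), *Sowahd* (0.54) and *Ankrd7* (0.51) were also higher. At equal *Ms4a1* the ranking brought up *Rbp2*, the retinol binding protein of enterocytes, at 10.37, 10.51 and 10.02 against 11.38, 11.18 and 10.79, a difference of 0.83 that was 0.55 (SE 0.21) at equal *Gata4*. It also brought up *Slc23a4*, named for its nucleobase carrier family, at 8.09, 6.92 and 7.74 against 8.73, 8.96 and 8.77.

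The ileum differed from the hippocampus in the size of the genotype effect. In the hippocampus, whose macrophages are microglia, the same fit called 95 clusters lower (0.448%) and 0 higher (0%) in FIRE -/-. In the ileum 0 of these 95 were called, 35 had a lower and 60 a higher mean, the median difference was 0.07 (0.34 in the patch-poor arrays and -0.39 between the patch-rich ones), and the values ran from -0.79 for *P2ry6* to 0.91 for *Slc2a5*. The 1 gene of the 95 whose ileal arrays did not overlap was *Fcrls*, an Fc receptor-like gene of microglia, at 3.82, 4.29 and 4.17 against 2.90, 3.35 and 3.76, singled out after its values were seen, and 1 of 95 is under the 4.52% of all clusters wholly lower. The test of the difference between tissues called 19 clusters (0.0895%) with a higher effect in the ileum and 0 (0%) with a lower one, and the 19 were all among the 95.

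The ileal differences of the 19 genes ran from -0.71 to 0.91. *Ctss*, a lysosomal protease, differed by -0.13 in the ileum and fell by 4.02 in the hippocampus, a difference of 3.89 (SE 0.23, adjusted p 4.261e-05 by limma). *Csf1r* differed by -0.71 in the ileum and fell by 4.63 in the hippocampus, a difference of 3.92 (SE 0.36, adjusted p 0.000758). *Itgam*, the integrin CD11b, *Trem2*, a lipid receptor, and *Irf8*, a myeloid transcription factor, differed by -0.18, -0.01 and 0.05 in the ileum, with 95% intervals of -0.48 to 0.13, -0.36 to 0.35 and -0.27 to 0.37. The intervals of *C1qa*, -0.64 to 0.56, and *Mpeg1*, -0.69 to 0.79, were wider, as these genes varied more between pieces. *Slc2a5*, the fructose carrier of enterocytes and also of microglia, was 9.0, 8.67 and 8.0 against 9.85, 9.63 and 8.91 in the ileum, higher by 0.91, or by 0.29 (SE 0.20) at equal *Gata4*, and it fell by 2.53 in the hippocampus.

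**Figure D5:**
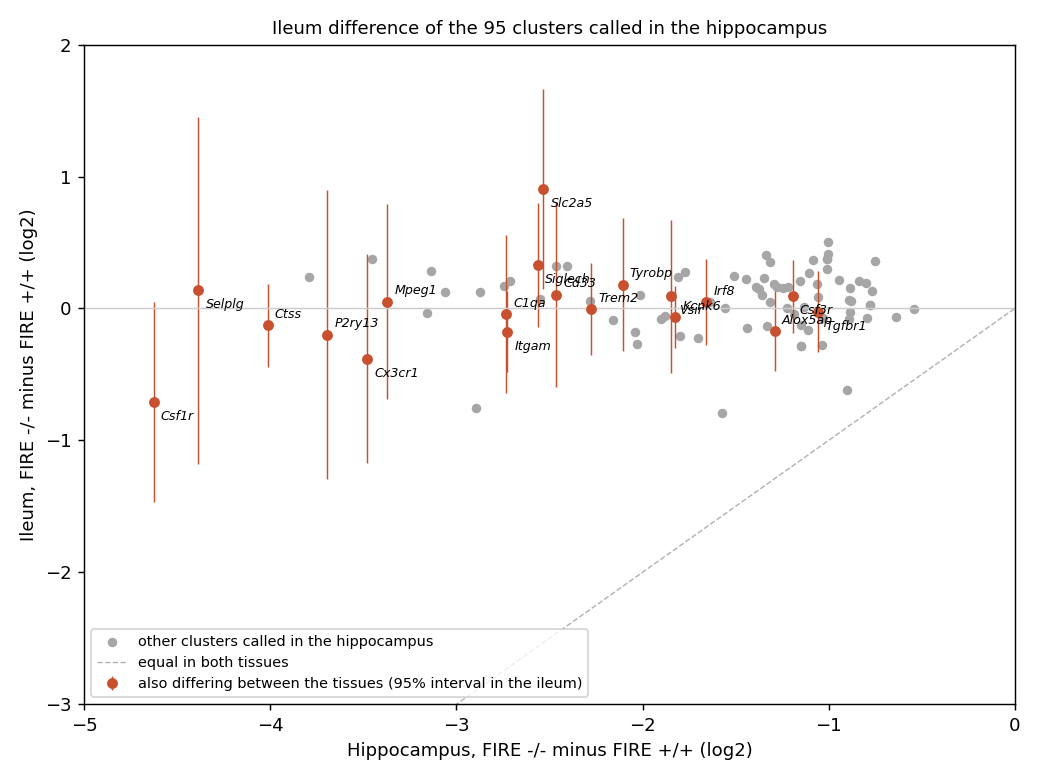
Log2 fold change of FIRE -/- against FIRE +/+ in the hippocampus (horizontal) and in the ileum (vertical), 1 point per cluster, for the 95 clusters called in the hippocampus. Hippocampal values reach -4.63 and ileal values stay between -0.79 and 0.91, with the 19 clusters that differ between tissues in colour, their bars the ileal 95% interval, and a dashed line where both tissues would be equal.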

How the data were processed

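The authors hybridised RNA from each piece to an Affymetrix Mouse Gene ST array and normalised the 12 arrays by RMA, and the deposited values are log2 signals with background and quantile corrections already made. No source used here names the version of RMA. Array depth has no counterpart in reads, so the spread between 3 arrays per genotype sets the precision. Symbols came from the platform annotation, and the 1881 clusters with several symbols and 12457 with none were left out. Where a gene had several clusters, the one with the highest mean stands for it in the lists.

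Genotypes were compared with limma 3.58.1 in R 4.3.3 (lmFit, eBayes, Benjamini-Hochberg over all single-symbol clusters, adjusted p under 0.05), without a covariate and with *Ms4a1*, and tissues by the difference of their genotype effects over 12 arrays. With 3 arrays against 3 an exact permutation test cannot give a p below 0.1, so none was used. The fits were tested on simulated data. Members, 49 gene lists with 538 symbols (51 had no cluster of their own) and *Ms4a1* were chosen with earlier results of these data known. Genes named are those the study followed, the 8 smallest p-values in each direction of each ileal fit over the highest-mean clusters, the 4 largest differences of each list, the 12 smallest p-values of the tissue comparison, the 12 largest hippocampal decreases and the neighbours of *Csf1r*. Genes outside this rule, such as list members given for contrast, were chosen after their values were seen. Promoters came from RefSeq (GRCm38.p6). The alternatives tried were another moderation, all clusters, a filter on dim clusters, a further quantile normalization, sex, array weights, left-out arrays and tissue markers as covariates.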

Additional observations from a re-analysis of the deposited data

Results flagged for a closer look

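For 12 named genes the genotype effect differed between tissues by limma's test of the difference itself, at an adjusted p under 0.05, and for each the ileal difference was above the hippocampal one. They were named for having the 12 smallest p-values of this test, which called 19 clusters, so that they passed it follows from how they were chosen. The effect in the ileum minus that in the hippocampus, in log2 units over 3 arrays in each of the 4 groups, was 3.92 for *Csf1r*, 3.89 for *Ctss*, 3.44 for *Slc2a5*, 3.42 for *Mpeg1* and 3.10 for *Cx3cr1*. It was 2.89 for *Siglech*, a lectin of microglia and plasmacytoid dendritic cells, 2.55 for *Itgam*, 2.29 for *Tyrobp*, the adaptor protein DAP12, and 2.27 for *Trem2*. It was 1.76 for *Kcnk6*, a potassium channel, 1.71 for *Irf8* and 1.29 for *Csf3r*, the receptor for G-CSF. The adjusted p-values ran from 4.261e-05 for *Ctss* to 0.0107 for *Cx3cr1*, and every one of the 12 fell in the hippocampus while none passed the test in the ileum.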

How the results depend on the processing

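The ileal count at an adjusted p under 0.05 stayed at 0 in both directions under every setting run without *Ms4a1* as a covariate. At equal *Ms4a1*, 1 cluster was called higher without FIRE +/+ replicate 1 (*Acot12*, range 0 to 1 over left-out arrays), and 6 lower and 15 higher without both patch-rich arrays, a fit with 1 residual degree of freedom. Without the patch-rich arrays the *Csf1r* difference at equal *Ms4a1* was 0.51 (SE 0.47) in place of -0.71; over left-out arrays it ran from -1.03 to -0.14, and without a covariate from -1.01 to -0.46. Clusters that did not overlap were 960 lower and 746 higher, 1560 and 1262 after *Ms4a1* was regressed out, and 3848 and 3585 in the patch-poor arrays, where 2 stand against 2. Clusters with a higher effect in the ileum than in the hippocampus were 19, but 8 without moderation, 34 with array weights, 50 with *Ms4a1* as a covariate, 62 higher and 3 lower (*Fam174c*, *Pbk* and *Ugt2b5*) without the patch-rich arrays, and 12 to 41 over left-out arrays, with 12 without hippocampus FIRE +/+ replicate 1 or FIRE -/- replicate 2 and 41 without ileum FIRE +/+ replicate 2. The causes were not tested. Of 864 values of named genes under these settings 857 moved by less than 1 SD, 59 changed sign, and 29 of 46 genes kept their sign throughout. Another moderation, all clusters, the filter on dim clusters and 1 fit of all 12 arrays leave a log2 fold change as it was. The count of 857 therefore includes values that could not move. For list medians 134 of 588 changed sign, and 12 of 49 lists kept theirs. No paired analysis was possible because the replicate numbers follow sample order and the labels do not pair animals.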

Other observations

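*Mep1a*, the brush border protease meprin A, varied more within each genotype than between them. It was 7.38, 11.23 and 11.33 in FIRE +/+ ileum and 11.54, 11.07 and 7.48 in FIRE -/- ileum, so that FIRE +/+ replicate 1 and FIRE -/- replicate 3 stood apart, and on the hippocampal arrays it was 2.56 to 3.04. These arrays were not those set apart by *Ms4a1* or *Gata4*, and *Mep1a* was singled out after its values were seen.

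Genes of antigen presentation by MHC class II had higher means in FIRE -/- for 7 of 7 measured, with a median of 0.29, none without overlap, 0.49 in the patch-poor arrays and -0.10 between the patch-rich ones. Genes of endothelium had a median of -0.01, which was 0.21 in the patch-poor arrays and -0.55 between the patch-rich ones. The enteroendocrine list had a median of 0.10, with 0.43 and -0.63 in those subsets, and the plasma cell and IgA transport list a median of 0.00, with 0.32 and -0.32. *Pigr*, the receptor that carries IgA across the epithelium, was 11.22, 11.21 and 11.27 against 10.88, 11.34 and 11.20, with a 95% interval of -0.42 to 0.23. *Jchain*, the joining chain of secreted IgA, was 8.18, 9.30 and 8.68 against 8.04, 9.23 and 8.86, a difference of -0.01 (95% interval -0.89 to 0.87).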
